A study of Mus musculus with 33 samples.

Results

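Early anagen, the first days of hair growth, was compared with telogen, the resting phase, across all genes measured in mouse dorsal skin during the natural hair cycle. The comparison used 7 of the 33 arrays of the series, chosen by the postnatal day in their titles: 4 arrays of early anagen (2 from P23 and 2 from P25, postnatal days 23 and 25) and 3 arrays of telogen (P44, postnatal day 44). Each array held total RNA of the upper-mid back skin of 1 wild-type C57BL/6 mouse, untreated and collected in the afternoon, and the phases had been staged by histology. Of the early anagen mice, 3 were male and 1 (P25 replicate 1) was female, and of the telogen mice 2 were male and 1 (P44 replicate 1) was female. The sample labels of the P44 arrays carry the words early anagen while the description of the whole series places P44 in telogen, and the days were followed. Telogen was sampled at the end of the growth cycle that P23 opens and not before it. Growth phase and age (23 or 25 days against 44 days) therefore cannot be told apart in any difference between these phases below.

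Hair follicles alternate between growth in anagen, regression in catagen and rest in telogen, and in young mice the follicles of the back do so almost together. At the onset of anagen, signals between the dermal papilla, a small group of mesenchymal cells, and the hair germ above it start the downgrowth of the follicle, and the new bulb then builds the inner root sheath and the hair shaft while pigment cells load the shaft with melanin. Cell division, keratins and the clock genes are the best known of these changes, and they were set aside here so that the rest of the transcriptome could be read. Whole skin also holds epidermis, dermis, fat, nerves, vessels, immune cells and a thin sheet of muscle, and in such samples fewer cells of a type and less RNA per cell cannot be told apart.

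Values are MAS 5.0 signals on a linear scale, listed in the order P23 replicates 1 and 2, P25 replicates 1 and 2, and then P44 replicates 1, 2 and 3. The 25th percentile of the whole table, 34.6, was set as a floor to which dimmer signals were raised before the log2 transformation. A log2 difference is early anagen minus telogen with its standard error from the linear model fit (n = 4 and 3), and where an array lay under the floor it is given as a bound on the difference of the mean log2 signals, not on a ratio of the mean signals. Signals compare arrays within a gene, and the height of 1 gene was not set against that of another. A gene was called changed at an adjusted p under 0.05 (limma, Benjamini-Hochberg over the 26988 probe sets kept), and rose or fell is written only of called genes.

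The trimmed mean signal was between 497.2 and 497.9 on the 7 arrays, since the authors had scaled them, and their medians lay between 111.2 and 142.5. Between 1.36% and 3.73% of the kept probe sets were under the floor. Correlations of log2 signals over all kept probe sets were 0.951 to 0.979 among the early anagen arrays, 0.955 to 0.976 among the telogen arrays and 0.896 to 0.928 between the phases. The 2 arrays labelled female gave Xist signals of 12345 and 14096 and the other males of the comparison between 36.8 and 103.2, while P25 replicate 2, labelled male, gave 560.7. The markers of hair bulb (Shh, Msx2, Lef1) and pigment cells (Tyr, Dct, Pmel) were low on all 3 telogen arrays and higher on all 4 early anagen arrays. The epidermal markers Krt10 and Krt14 gave high signals on all 7. Krt1, Krt10 and Lor, also epidermal, fell in early anagen (log2 differences -0.59 ± 0.15, -0.50 ± 0.12 and -0.65 ± 0.11). Krt14 (-0.18 ± 0.13) and Flg (-0.45 ± 0.34) were not called. The part of the epidermal share in the falls below was not tested.

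Of 26988 probe sets 3651 (13.5%) rose and 3570 (13.2%) fell in early anagen, 26.8% together, and in 10908 (40.4%) the p before adjustment was under 0.05. Centring every array on its own median in place of the scaling of the authors moved the median difference of all probe sets from -0.05 to 0.09 on the log2 scale, and the calls then split into 4815 rises and 1961 falls, so the count of falls depends more on the scaling than the count of rises. Represented by 1 probe set each, 12867 genes were measured, of which 1986 (15.4%) rose, 1883 (14.6%) fell, 30.1% together. The median log2 difference of all genes was -0.02, with quartiles of -0.39 and 0.31. Every list below is read against these shares. Without P44 replicate 3 the calls over probe sets were 4271, and without P44 replicate 2 they were 4728.

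Changes were more often large on the rising side. Called and at least 4-fold higher were 185 genes (1.44% of those measured), of which 88 belonged to the lists of mitosis and DNA replication and 6 to the clock and keratin lists, which left 91. Many of the 91 also serve cell division or DNA replication, such as Ccnf, Cenph, Kif18b, Ska1, Pclaf and Ticrr, so the count is not apart from either. Called and at least 4-fold lower were 47 genes (0.365%), of which 43 were outside those lists.

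The 15 genes with the largest rises outside the lists set aside held signals, transcription factors, matrix proteins and enzymes, several of them known from the hair bulb. Only called genes whose phases did not overlap were ranked, so the separation of these 15, and of the 15 largest falls, was a condition of choice. Of all 12867 genes 5542 (43.1%) did not overlap, and any lack of overlap below is read against this share. Shh, the hedgehog ligand made by hair matrix cells, gave signals of 2759.8, 3435, 1870.2 and 4406 in early anagen, against 158, 166 and 147 in telogen (log2 difference 4.24 ± 0.27, adjusted p = 0.000316). Adamts20, a secreted protease that in mice is required for the spread of pigment cells over the belly, gave 601, 816, 449 and 917 in early anagen, against 16.6, 43.0 and 12.8 in telogen (log2 difference at least 4.17, adjusted p = 0.000269). Dlx2, a homeobox factor, gave 771, 1051, 664 and 1136 in early anagen, against 32.2, 90.6 and 83.3 in telogen (log2 difference at least 3.79, adjusted p = 0.000871). In all 3 the lowest early anagen array was P25 replicate 1 and the highest P25 replicate 2, and the groups lay far apart.

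Matrix genes were the next group. Fbn2, the fibrillin of fetal microfibrils, gave 1193, 1346, 1336 and 1364 in early anagen, against 51.3, 152 and 134 in telogen (log2 difference 3.69 ± 0.36, adjusted p = 0.000871), and its 4 early anagen signals differed little from each other. Scube3, a secreted protein with EGF-like repeats, gave 384, 422, 346 and 535 in early anagen, against 34.7, 38.2 and 34.2 in telogen (log2 difference at least 3.54, adjusted p = 0.000196). Col11a1, a fibrillar collagen chain best known from cartilage, gave 815, 1051, 581 and 1187 in early anagen, against 106, 58.6 and 77.9 in telogen (log2 difference 3.48 ± 0.29, adjusted p = 0.000603). Groups did not overlap in any of the 3.

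Mycn, a growth-promoting factor related to the oncogene product c-MYC, gave signals of 1494, 1768, 1290.1 and 2288 in early anagen, against 173, 142 and 136 in telogen (log2 difference 3.48 ± 0.21, adjusted p = 0.000257). Fbp1, an enzyme of glucose synthesis, gave 385, 1013, 702 and 1537 in early anagen, against 121, 38.0 and 75.4 in telogen (log2 difference 3.52 ± 0.54, adjusted p = 0.00456). Gnmt, which uses up methyl groups of S-adenosylmethionine, gave 274, 680.4, 329 and 819 in early anagen, against 11.5, 14.7 and 77.7 in telogen (log2 difference at least 3.39, adjusted p = 0.00323). Fbp1 and Gnmt varied by more than 2-fold among the early anagen arrays, with P23 replicate 1 lowest and P25 replicate 2 highest. Gjb2, the gap junction protein connexin 26, gave 2862, 5443, 2980.0 and 7119.8 in early anagen, against 398, 443 and 474 in telogen (log2 difference 3.29 ± 0.33, adjusted p = 0.00104). Padi3, an enzyme that converts arginine of inner root sheath proteins to citrulline, gave 453, 1256, 604 and 1868 in early anagen, against 154, 126 and 43.7 in telogen (log2 difference 3.24 ± 0.61, adjusted p = 0.00929). Tyr, the first enzyme of melanin synthesis, gave 686, 1033, 471 and 1138 in early anagen, against 112, 83.4 and 66.8 in telogen (log2 difference 3.20 ± 0.34, adjusted p = 0.00116). The groups were separate for all of these genes, as the rule for the 15 required.

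The remaining 3 of the 15 were Sgo1, Esco2 and Corin. Sgo1, a guardian of sister chromatids (at least 3.54 on the log2 scale), and Esco2, which acetylates cohesin (at least 3.35), serve cell division without being on the lists that were set aside. Corin, a protease of the dermal papilla, gave 256, 663, 129.7 and 889 in early anagen, against 13.8, 6.60 and 61.3 in telogen (log2 difference at least 3.16, adjusted p = 0.0135), with the widest spread of the 15 in early anagen. Its call was lost without P44 replicate 2 (adjusted p = 0.0505). The 30 genes are drawn array by array in the plot of the largest rises and falls.

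**Figure D1:**
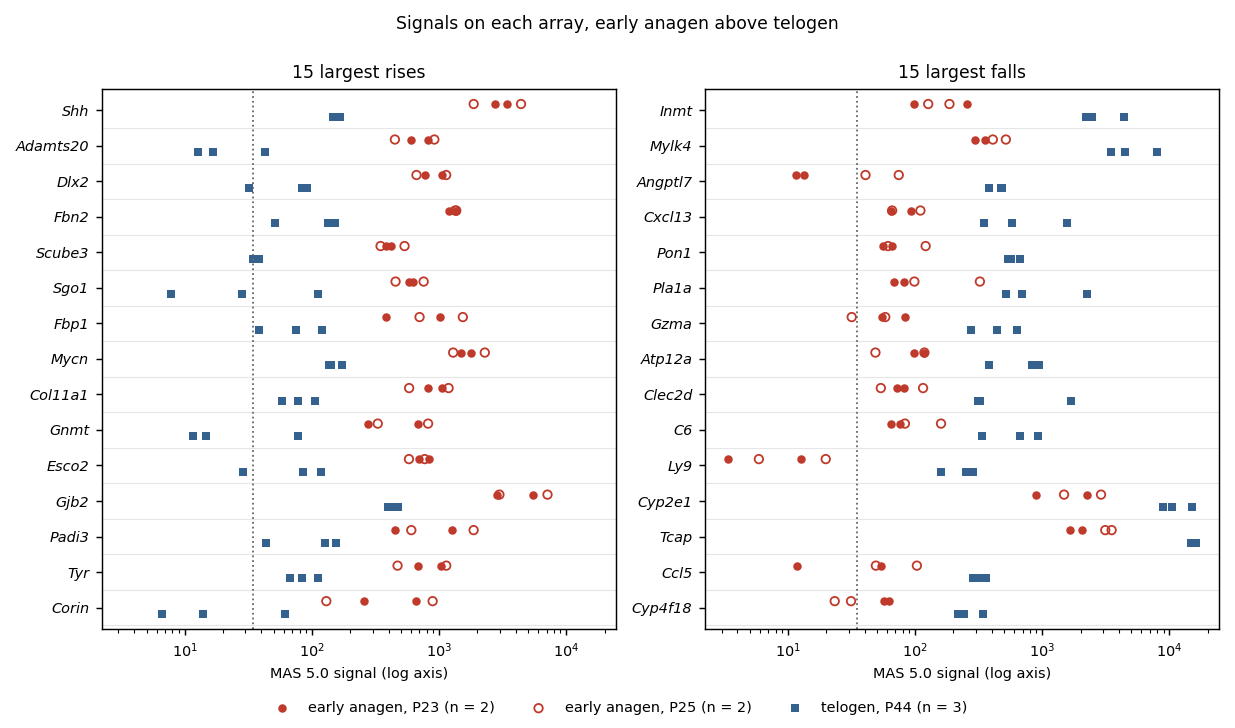
MAS 5.0 signal (log axis) of the 15 genes with the largest rises (left panel) and the 15 with the largest falls (right panel) on each array, red circles for early anagen (filled P23, open P25, 4 arrays) drawn above blue squares for telogen (P44, 3 arrays). The dotted line is the floor of 34.6. Shh lies between 1870 and 4406 in early anagen and between 147 and 166 in telogen, and Inmt between 97.4 and 258 in early anagen and between 2218 and 4424 in telogen.

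The 4 early anagen mice did not stand equally far from telogen. Among the 15 largest rises the highest of the early anagen signals was on P25 replicate 2 in 14 genes and on P23 replicate 2 in 1, and the lowest was on P25 replicate 1 in 10 and on P23 replicate 1 in 5. Over the 91 genes at least 4-fold higher, P25 replicate 2 was highest in 55 (60.4%) and P25 replicate 1 lowest in 63 (69.2%), whereas over all 12867 genes these arrays were highest in 23.8% and lowest in 28.8%. On the falling side P25 replicate 1 was the highest of the early anagen arrays, thus nearest to telogen, in 28 of the 43 genes at least 4-fold lower (65.1%, against 34.7% over all genes). P25 replicate 1 was also the only female of the early anagen mice and P25 replicate 2 the array with the Xist signal between the sexes. The part of either in this order of the arrays was not tested. Between P25 and P23 no probe set of 26988 passed the test in limma (0%) and none did in the methods' t-test after adjustment, while for 1026 (3.8%) the limma p before adjustment was under 0.05.

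The later days of the cycle divided the rising genes into those that peaked at the onset of growth and those that went on rising. Of the 91 genes at least 4-fold higher, 50 (54.9%) had their highest day mean of the natural cycle at P23 or P25, 13 at P27, 20 at P29 or P34 and 8 at P37 or P39. Among all 1986 genes that rose, 1175 (59.2%) peaked at P23 or P25, against 3496 of 12867 (27.2%) of all genes. The 50 include genes of cell division that the lists missed, such as Cenph and Ska1, and the 1986 include the lists set aside. The days P23 to P44 were each sampled by 2 or 3 mice, except P34 with 1 mouse, and a peak day is a description without a test, since the same arrays chose the genes.

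Fbn2 had day means of 1269.8, 1349.7, 537, 210.1, 217, 175, 163, 279.9 and 112 at P23, P25, P27, P29, P34, P37, P39, P41 and P44, so that its signal was already low in full anagen. In the same order of days Scube3 had 403, 441, 314, 172, 151, 65.5, 94.6, 68.3 and 35.7, and Lepr, the leptin receptor, had 1550.4, 1715, 924, 455, 263, 246, 265, 296 and 477. All 3 were highest in early anagen. Adamts4, a protease that cleaves the large proteoglycans aggrecan and versican, had 487, 436, 158, 79.2, 105, 84.7, 114, 149.6 and 63.4, and Edar, the ectodysplasin receptor that is required for the first hair placodes, had 175, 173, 139, 93.8, 102, 73.7, 45.7, 31.3 and 20.0. Both had left their peak by P29. In contrast, Padi3 had 854, 1236, 9056, 16698, 17296, 17348, 19306, 6446 and 108, and Gjb2 had 4152, 5049.9, 14016, 22319, 22953, 23402, 26082, 7524 and 438, so that early anagen held only the start of their rise. Fbp1, with 699, 1119, 7811, 7688, 6781, 6255, 6433, 1607 and 78.1, and Msx2, with 1140.2, 1211, 3129.6, 4046, 4306, 3876, 4065, 1047 and 151, followed the same order of days and stayed high until P39, as the plot of day means shows.

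**Figure D2:**
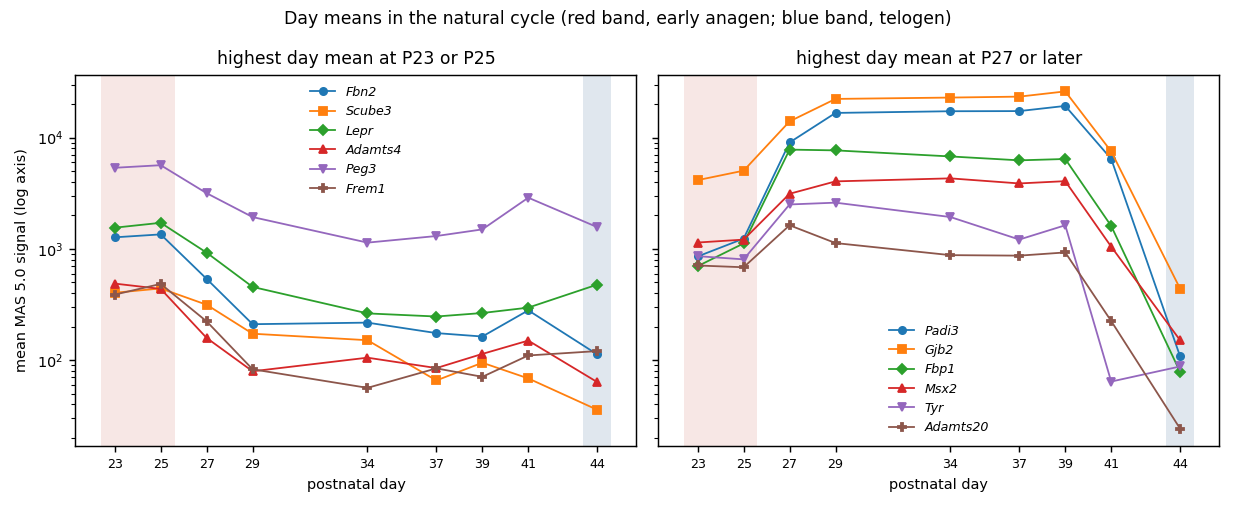
Mean MAS 5.0 signal (log axis) by postnatal day of the natural cycle (2 or 3 mice a day, and 1 at P34), with the early anagen days on a red band and telogen on a blue band. The genes of the left panel (Fbn2, Scube3, Lepr, Adamts4, Peg3, Frem1) are highest at P23 or P25, and those of the right panel (Padi3, Gjb2, Fbp1, Msx2, Tyr, Adamts20) are highest at P27 or later, with Gjb2 at 4152 at P23 and 26082 at P39.

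After depilation, which starts growth by plucking resting hair, the same genes were measured at 3, 5, 8, 12 and 17 days in 2 mice a day. These mice were all labelled female and, by the paper, were depilated at an age above that of the P44 mice. The part of age or sex in their values was not tested. Fbn2 had means of 64.5, 706, 392, 119.7 and 139, Scube3 had 7.30, 355, 274, 141 and 106 and Shh had 146, 2276, 2426, 1101 and 1186 on those days. Fbn2 and Shh stood lowest at 3 days and highest at 5 or 8 days.

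Further rises are named here after their values were seen. Hsd11b2, which inactivates corticosterone, gave 719, 1332, 280.5 and 1084 in early anagen, against 125, 96.8 and 105 in telogen (log2 difference 2.76 ± 0.50, adjusted p = 0.00822). Cyp27b1, which makes the active form of vitamin D, gave 169, 282, 166 and 342 in early anagen, against 13.0, 2.30 and 20.2 in telogen (log2 difference at least 2.72, adjusted p = 0.000972). Bach2, a transcriptional repressor, gave 2436, 2896, 1793 and 2812 in early anagen, against 567, 434 and 538 in telogen (log2 difference 2.26 ± 0.20, adjusted p = 0.000634). All 3 were lower again later in anagen, with signals of 139, 62.7 and 542 in the P34 mouse. Cps1, the entry enzyme of the urea cycle in liver, gave 346, 418, 171 and 610.5 in early anagen, against 41.4, 50.8 and 13.8 in telogen (log2 difference at least 3.07, adjusted p = 0.00262). Arg2, an arginase of mitochondria, gave 874, 1021, 927 and 952 in early anagen, against 246, 143 and 112 in telogen (log2 difference 2.58 ± 0.25, adjusted p = 0.000894). Neither overlapped between the phases.

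Of the Sox, homeobox, forkhead and T-box factors, the families that pattern skin appendages, 23 of 89 rose and 11 fell (25.8% and 12.4%, against 15.4% and 14.6% of all genes). The count of rises was smaller with fewer arrays, at 13 without P44 replicate 3, 15 when any array but P25 replicate 1 or P44 replicate 3 was left out. Msx2, a homeobox factor of the hair matrix, gave 848, 1432, 938 and 1484 in early anagen, against 176, 112 and 164 in telogen (log2 difference 2.95 ± 0.26, adjusted p = 0.000672). Dlx1, the neighbour of Dlx2 in the genome, gave 166, 254, 160.2 and 273 in early anagen, against 42.9, 2.40 and 2.30 in telogen (log2 difference at least 2.48, adjusted p = 0.000736), with all but 1 telogen signal under the floor. Both were higher on every early anagen array, with P23 replicate 2 and P25 replicate 2 highest. Sox4, a factor of progenitor cells, gave 9166, 9805, 8210.0 and 11592 in early anagen, against 3589.5, 2458 and 3095 in telogen (log2 difference 1.68 ± 0.18, adjusted p = 0.00115). Lhx2, a factor of hair follicle stem cells, gave 3733, 3825, 3534 and 4385 in early anagen, against 1054, 1430.4 and 1561 in telogen (log2 difference 1.54 ± 0.16, adjusted p = 0.00121). The factors Irx3, Irx5 and Foxp1 went in the other direction. Irx3, an Iroquois homeobox factor, gave 600.5, 834, 633 and 529 in early anagen, against 1253, 1537 and 1539.5 in telogen (log2 difference -1.17 ± 0.18, adjusted p = 0.00435). Its neighbour Irx5 gave 519, 659.7, 800.1 and 572 in early anagen, against 1136, 1233 and 1271 in telogen (log2 difference -0.95 ± 0.16, adjusted p = 0.00704). Foxp1, a forkhead repressor, gave 784, 1073, 685 and 927 in early anagen, against 1888, 1496 and 1728 in telogen (log2 difference -0.99 ± 0.18, adjusted p = 0.00805). These falls were smaller than the rises of Msx2 and the Dlx genes, and again no signals overlapped.

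In the ectodysplasin and NF-kappaB list 3 of 18 genes rose and 6 fell (16.7% and 33.3%, against 15.4% and 14.6% of all genes). The share of rises was thus near that of all genes, and the falls were 3 without P23 replicate 2 or P44 replicate 2. The receptor Edar gave 167, 184, 153 and 194 in early anagen, against 36.1, 12.3 and 11.7 in telogen (log2 difference at least 2.31, adjusted p = 0.000196). Its relative Tnfrsf19, also called Troy, gave 2609.7, 2753, 3214 and 2958 in early anagen, against 1931, 1905 and 1763 in telogen (log2 difference 0.62 ± 0.11, adjusted p = 0.00857). Members of the IkappaB family went the other way. Nfkbia, which holds NF-kappaB in the cytoplasm and is itself one of its targets, gave 6714, 7503, 7086 and 7433 in early anagen, against 12382, 13099 and 12695 in telogen (log2 difference -0.83 ± 0.10, adjusted p = 0.00185), and Nfkbie and Nfkbiz had log2 differences of -0.90 ± 0.13 and -0.76 ± 0.13. Early anagen was therefore higher in Edar and Tnfrsf19 and lower in 3 IkappaB family members on every array.

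Ligands of the EGF receptor were among the genes that fell. Of 15 measured genes of the EGF family 0 rose and 4 fell (26.7%), with a median log2 difference of -0.40, and 1 gene rose without P25 replicate 1. Ereg, the ligand epiregulin, gave 423, 432, 394 and 453 in early anagen, against 1156, 1206 and 1042 in telogen (log2 difference -1.41 ± 0.11, adjusted p = 0.00048). Btc, the ligand betacellulin, gave 648, 720.2, 845 and 584 in early anagen, against 1845, 1792 and 1906 in telogen (log2 difference -1.41 ± 0.14, adjusted p = 0.00105). Errfi1, which is induced by the receptor and inhibits it, gave 1435, 1931, 1404 and 1578 in early anagen, against 3962, 3654 and 3445 in telogen (log2 difference -1.23 ± 0.14, adjusted p = 0.00171). Egf itself was called (log2 difference -0.65 ± 0.17, adjusted p = 0.0315) but not when any array but P25 replicate 1 was left out. Ereg, Btc and Errfi1 kept apart between the phases on all 7 arrays.

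The FGF, BMP and TGF-beta, and Notch lists had 2 rises and 3 falls of 26, 4 and 4 of 50, and 2 and 2 of 27. All these shares were under those of all genes, 15.4% and 14.6%. After median centring these became 5 and 3, 9 and 2, and 4 and 0. The rises were 1 when any array but P23 replicate 2, P25 replicate 1 or P44 replicate 1 was left out for FGF and 7 without P25 replicate 1 for BMP, and the falls 2 without P44 replicate 3 for BMP and 0 when any array but P23 replicate 2 or P25 replicate 1 was left out for Notch. Single members were clear. Fgf18, a ligand that keeps follicles at rest in mice, gave 14.9, 78.7, 142 and 52.8 in early anagen, against 282, 342 and 273 in telogen (log2 difference -2.15 or lower, adjusted p = 0.0125). The receptor gene Fgfr2 gave 4118, 4124, 4177 and 4309 in early anagen, against 2281, 2602 and 2332 in telogen (log2 difference 0.80 ± 0.10, adjusted p = 0.00222). Fgf18 was lower and Fgfr2 higher on every early anagen array. Sostdc1, an inhibitor of BMP and Wnt signals, gave 4044, 5283, 4524 and 4349 in early anagen, against 1880.2, 1908 and 2276 in telogen (log2 difference 1.17 ± 0.14, adjusted p = 0.00167). Bambi, a decoy receptor of the BMP and TGF-beta family, gave 535, 812, 405 and 810.3 in early anagen, against 256, 269 and 197 in telogen (log2 difference 1.37 ± 0.27, adjusted p = 0.0117). The Notch targets Hey2 and Heyl had log2 differences of at least 1.97 and 1.70 ± 0.33. For all 6 genes the highest signal of the lower phase stayed below the lowest of the higher phase.

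Hormone receptors had genes in both directions, with 4 of 27 higher and 4 lower (falls at 1 without P44 replicate 3, 2 without P23 replicate 2, 1 after median centring). These are 14.8% each, near the 15.4% and 14.6% of all genes. Lepr gave 1494, 1607, 1649.6 and 1781 in early anagen, against 626, 344 and 460.4 in telogen (log2 difference 1.82 ± 0.20, adjusted p = 0.00141). Vdr, the vitamin D receptor whose loss in mice stops hair cycling, gave 2134, 2637, 2259.8 and 2869 in early anagen, against 1080.4, 1152 and 1267 in telogen (log2 difference 1.08 ± 0.14, adjusted p = 0.00251). The orphan receptor Nr4a1, an immediate early gene, gave 527, 532, 363 and 440.2 in early anagen, against 1350.4, 1229 and 1314 in telogen (log2 difference -1.49 ± 0.16, adjusted p = 0.00121). Guidance ligands and receptors known from axons were also mixed, with 7 higher and 9 lower of 58 (12.1% and 15.5%, near the shares of all genes). The rises were 4 without P23 replicate 2 or P44 replicate 3 and 11 without P25 replicate 1. The falls were 2 without P44 replicate 3 and 5 without P23 replicate 1 or P44 replicate 2. Median centring gave 14 rises and 3 falls. Nrp2, a receptor for semaphorins and VEGF, gave 1659.7, 1777, 1309 and 2362 in early anagen, against 687, 489 and 607 in telogen (log2 difference 1.56 ± 0.22, adjusted p = 0.00323). Neo1, a netrin receptor, gave 1922, 2142, 1804 and 2316 in early anagen, against 959, 872 and 1024 in telogen (log2 difference 1.10 ± 0.13, adjusted p = 0.00173). The signals of these 5 receptors were apart between the phases.

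The lists of the extracellular matrix held rises and falls. Of 35 basement membrane genes 11 rose and 6 fell (31.4% and 17.1%, against 15.4% and 14.6% of all genes), so the share of falls was near that of all genes. The falls were 2 without P23 replicate 2 or P25 replicate 2 and 3 after median centring. They were 3 when any array but P23 replicate 2, P25 replicate 1 or P25 replicate 2 was left out. Fras1 and Frem1 act in 1 complex under embryonic epithelia, and Fras1 gave 459, 463, 556 and 548 in early anagen, against 119, 97.1 and 115 in telogen (log2 difference 2.20 ± 0.13, adjusted p = 0.00026). Frem1 gave 360.3, 415, 578 and 389 in early anagen, against 71.8, 151 and 139 in telogen (log2 difference 1.90 ± 0.29, adjusted p = 0.00446). Egfl6, a basement membrane protein of the hair follicle, gave 642, 688, 392 and 627 in early anagen, against 227, 253 and 277 in telogen (log2 difference 1.19 ± 0.21, adjusted p = 0.00759). All 3 were higher on each early anagen array. Among the falls were Lamb3, a chain of laminin 332 of the epidermal basement membrane, at 1140.2, 1131, 1238 and 965 in early anagen, against 2796, 1856 and 2161 in telogen (log2 difference -1.01 ± 0.17, adjusted p = 0.00598), and Itgb4, which binds that laminin in hemidesmosomes (-0.58 ± 0.11). Col17a1, a further hemidesmosome gene, gave 4620.1, 5044, 6255 and 4246 in early anagen, against 9767, 9954 and 9863 in telogen (log2 difference -0.98 ± 0.15, adjusted p = 0.00431). Lamb3, Itgb4 and Col17a1 were lower on every early anagen array.

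Proteoglycans and glycoproteins had 14 rises and 8 falls in 51 genes (27.5% and 15.7%, against 15.4% and 14.6% of all genes). The rises were 8 without P23 replicate 1, P44 replicate 1 or P44 replicate 2, and 9 without P23 replicate 2 or P44 replicate 3. The falls, near the share of all genes, were 5 without P44 replicate 3. Acan, the proteoglycan aggrecan of cartilage, gave 341, 400.5, 183 and 387 in early anagen, against 107, 53.3 and 57.2 in telogen (log2 difference 2.19 ± 0.35, adjusted p = 0.0054). Has3, a hyaluronan synthase, gave 383, 358, 189 and 352 in early anagen, against 60.4, 3.80 and 7.20 in telogen (log2 difference at least 2.89, adjusted p = 0.00128). Tnxb, the tenascin of connective tissue that binds collagen, gave 2327, 2064, 2128 and 1719 in early anagen, against 6388, 7873 and 6299 in telogen (log2 difference -1.74 ± 0.15, adjusted p = 0.0006). Ecm1 gave 2079, 2059, 2356 and 1602 in early anagen, against 5606, 6032 and 5353 in telogen (log2 difference -1.50 ± 0.15, adjusted p = 0.000972). Early anagen was higher in all signals of the first pair and lower in all of the second.

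Of 41 matrix proteases and their inhibitors 8 rose and 7 fell (4 without P44 replicate 3). These are 19.5% and 17.1%, close to the 15.4% and 14.6% of all genes. Among the rises were ADAMTS proteases. Adamts9 gave 1396, 1128, 1174 and 1346 in early anagen, against 332, 224 and 341 in telogen (log2 difference 2.10 ± 0.18, adjusted p = 0.000607). Adamts4 gave 479, 495, 281 and 592 in early anagen, against 63.8, 53.4 and 72.9 in telogen (log2 difference 2.83 ± 0.26, adjusted p = 0.000739). Adamts18 gave 106, 157, 148 and 173 in early anagen, against 14.6, 17.2 and 12.8 in telogen (log2 difference at least 2.05, adjusted p = 0.000602). Their early anagen signals were all above telogen, where Adamts18 stayed under the floor. Among the falls the inhibitor Timp2 gave 7181, 7582, 11049.9 and 7743 in early anagen, against 14980.4, 23293 and 18032 in telogen (log2 difference -1.16 ± 0.21, adjusted p = 0.00804), and the gelatinase Mmp9 had a log2 difference of -0.95 ± 0.18. Mmp2, the other gelatinase, was called as lower (log2 difference -1.20 ± 0.27, adjusted p = 0.0169) but not without P44 replicate 2 or P44 replicate 3.

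Genes that build ribosomes rose almost as a block. Of 49 genes of ribosome assembly 41 (83.7%) rose and 0 fell, with a median log2 difference of 0.67 and with 31 to 37 rises when 1 array was left out. Nop58, a core protein of the particles that methylate ribosomal RNA, gave 981, 768, 938 and 793 in early anagen, against 254, 276 and 227 in telogen (log2 difference 1.78 ± 0.14, adjusted p = 0.00048). Fbl, the methyltransferase fibrillarin of the same particles, gave 4408, 4588, 4009 and 4889 in early anagen, against 2173, 1673 and 1779 in telogen (log2 difference 1.26 ± 0.13, adjusted p = 0.00121). Dkc1, which makes pseudouridine in ribosomal RNA, gave 1955, 1956, 1999 and 1883 in early anagen, against 781, 629.5 and 762 in telogen (log2 difference 1.43 ± 0.11, adjusted p = 0.000524). The 4 early anagen signals of each gene were close together and all above telogen. The ribosomal proteins themselves did not follow. Of 41 measured, 3 rose and 1 fell, with a median of -0.15 that turned to 0.10 after quantile normalization, and the fall of Rpl39 (-0.39 ± 0.12) was lost when any 1 of the 7 arrays was left out. Rpl12, 1 of the 3 that rose, gave 934, 1023, 859 and 917 in early anagen, against 528, 421 and 405 in telogen (log2 difference 1.06 ± 0.13, adjusted p = 0.00221). Whether the probe sets of the called ribosomal proteins read the main transcript of their gene was not tested. Mitochondrial ribosomal proteins lay between these, with 16 of 75 higher (21.3%, against 15.4% of all genes). That count was 5 without P44 replicate 3, 6 without P23 replicate 2, 8 without P44 replicate 2 and 9 without P23 replicate 1.

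Lists around the ribosome also held rises and 0 falls. RNA polymerase I, which transcribes ribosomal RNA, had 7 of 14 genes higher (4 without P23 replicate 2), the aminoacyl tRNA synthetases 11 of 19 (7 without P44 replicate 3) and translation factors 11 of 39 (5 without P44 replicate 3, 6 without P23 replicate 1, P25 replicate 2 or P44 replicate 2, 7 without P23 replicate 2). Of 58 splicing genes 40 rose and 0 fell (median 0.55, 30 to 43 with 1 array left out). Lsm2, part of the ring on the U6 small nuclear RNA, gave 1048, 1183, 958 and 959.9 in early anagen, against 334, 403 and 390.2 in telogen (log2 difference 1.46 ± 0.13, adjusted p = 0.000647). Of 40 genes of the nuclear pore and its carriers 23 rose and 1, the importin Ipo13 (-0.75 ± 0.15), fell. Kpna2, an importin that carries cargo into the nucleus, gave 5426, 6301, 4939 and 6756 in early anagen, against 1658, 1435 and 1587 in telogen (log2 difference 1.90 ± 0.14, adjusted p = 0.000461). Cytosolic chaperones had 17 of 23 higher (11 without P44 replicate 3), among them Hspd1, the chaperone of mitochondria that the list also holds (0.92 ± 0.10). The proteasome did not stand out, with 5 higher and 1 lower of 37, and with 0 to 1 higher and 0 to 3 lower (3 without P25 replicate 1) when any 1 array was left out, but with 12 higher after median centring. The share of each list that passed the test is drawn in the plot of lists, and the members of 8 lists in the plot of single genes.

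**Figure D3:**
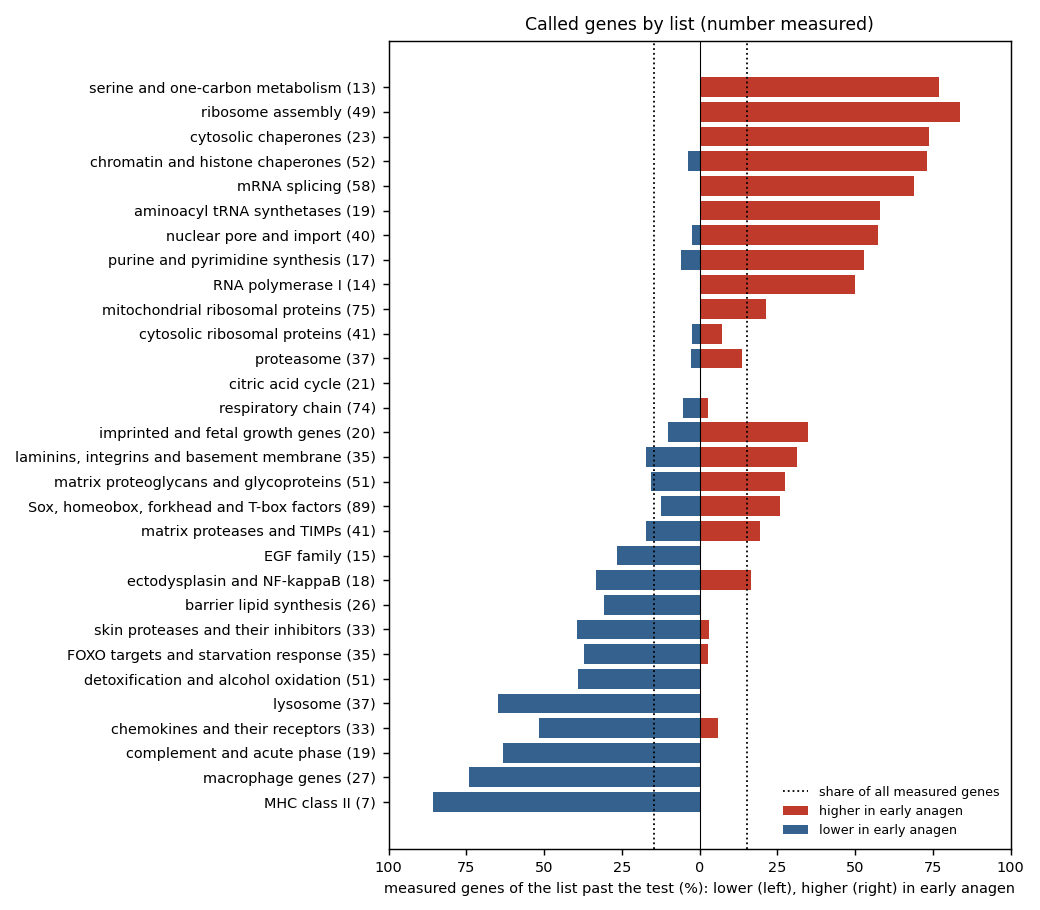
Share of the measured genes of each of 30 lists (number measured in brackets) that passed the test, in percent, with genes higher in early anagen drawn in red to the right and genes lower in early anagen in blue to the left. The dotted lines mark the shares over all 12867 genes, 15.4% higher and 14.6% lower. Ribosome assembly reaches 83.7% to the right and MHC class II 85.7% to the left.

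**Figure D4:**
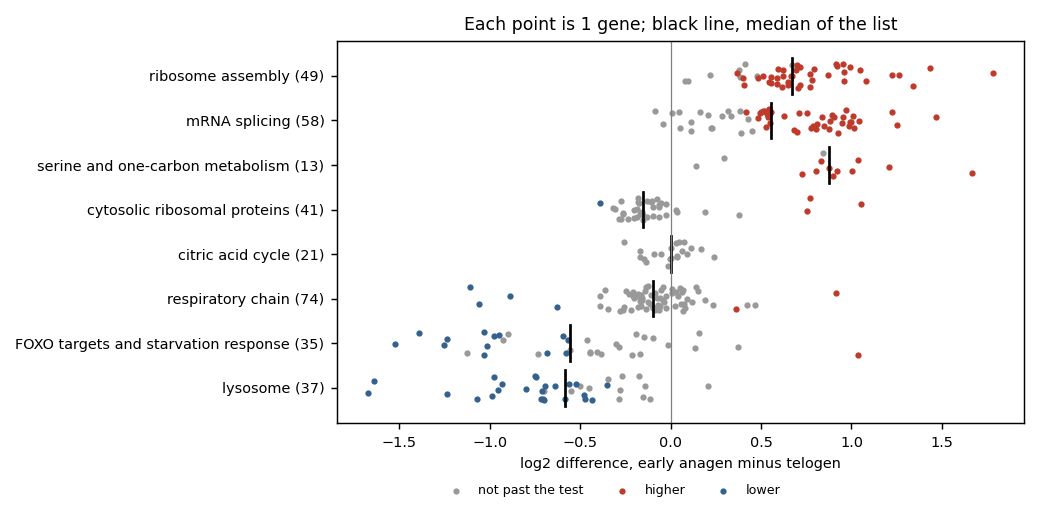
Log2 difference, early anagen minus telogen, of every measured gene of 8 lists (number in brackets), with the median of each list as a black line and red, blue and grey points for genes that rose, fell or were not called. Ribosome assembly has a median of 0.67 and the lysosome list one of -0.58, while the citric acid cycle lies at 0.00.

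Of 52 genes of chromatin and histone chaperones 38 (73.1%) rose and 2 fell (median 0.85). Hmgb2, a DNA-bending protein, gave 5524, 6394, 5175 and 7024 in early anagen, against 1184, 1430.2 and 1364 in telogen (log2 difference 2.18 ± 0.14, adjusted p = 0.000322). Dnmt1, the methyltransferase that copies DNA methylation after replication, gave 2668, 2692, 2461 and 2859 in early anagen, against 1190.5, 1185 and 1148 in telogen (log2 difference 1.18 ± 0.10, adjusted p = 0.000611). Cbx7, a Polycomb protein, went down, with 245, 305, 301 and 295 in early anagen, against 840.4, 779 and 844 in telogen (log2 difference -1.52 ± 0.12, adjusted p = 0.000506). The other gene that fell, Hmga2 (-1.11 ± 0.24), lost its call without P44 replicate 2, which left 1 fall. The list shares 2 genes with DNA replication and several more act there, so the count is not apart from the cell division that was set aside.

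Among the metabolic lists, those of synthesis held most of the rises. Of 13 genes of serine and one-carbon metabolism, which feed purine and thymidine synthesis, 10 rose and 0 fell, and 10 rose whichever array was left out. Phgdh, the first enzyme of serine synthesis, gave 2841, 2674, 2443 and 2559 in early anagen, against 1199, 1406 and 1241 in telogen (log2 difference 1.04 ± 0.11, adjusted p = 0.00129). Ahcy, which clears S-adenosylhomocysteine, gave 2907, 3621, 2524 and 3753 in early anagen, against 819, 1179.7 and 1023 in telogen (log2 difference 1.67 ± 0.19, adjusted p = 0.00166). Purine and pyrimidine synthesis had 9 rises and 1 fall in 17, and the gene that fell, Adssl1, is the muscle form of its enzyme (-1.40 ± 0.25). Slc7a1, a carrier of arginine and lysine, gave 2442, 2680.3, 2182 and 3280.1 in early anagen, against 832, 929.9 and 721 in telogen (log2 difference 1.67 ± 0.17, adjusted p = 0.00101). Slc7a5, a carrier of large neutral amino acids, gave 769, 1047, 712 and 913 in early anagen, against 198, 275 and 274 in telogen (log2 difference 1.79 ± 0.19, adjusted p = 0.00115). Both carriers were high on all 4 early anagen arrays, though of 22 amino acid transporters as many fell as rose (5 each; rises 3 without P44 replicate 2). Odc1, the enzyme that starts polyamine synthesis, gave 4039.5, 4333, 4287 and 4966 in early anagen, against 2094, 2118 and 2389.9 in telogen (log2 difference 1.00 ± 0.12, adjusted p = 0.00177). Scd2, a desaturase of fatty acids, gave 9528, 9718, 8158 and 10518 in early anagen, against 2814, 3229 and 2624 in telogen (log2 difference 1.71 ± 0.13, adjusted p = 0.000495). None of these overlapped between the phases.

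Of 21 genes of the citric acid cycle 0 passed the test (median 0.00; 0 with an unadjusted p under 0.05 in limma), and of 74 genes of the respiratory chain 2 rose and 4 fell (median -0.10, or 0.05 after median centring; rises 1 when any array but P44 replicate 1 was left out, falls 1 without P44 replicate 3, 2 without P44 replicate 1). Several of the genes that fell here are muscle forms. Cox7a1, the heart and muscle form of a cytochrome oxidase subunit, gave 1821, 1411, 1974 and 1261 in early anagen, against 3443, 3047 and 3446 in telogen (log2 difference -1.06 ± 0.18, adjusted p = 0.00643). Fabp3, the fatty acid carrier of heart and muscle, gave 1266, 661, 959.6 and 539 in early anagen, against 3694, 2198 and 2352 in telogen (log2 difference -1.72 ± 0.33, adjusted p = 0.00963). Fatty acid oxidation had 0 rises and 6 falls of 29, and glycolysis 1 rise and 7 falls of 21, which became 1 without P44 replicate 2, 2 when any array but P23 replicate 1, P25 replicate 1 or P44 replicate 2 was left out, 4 without P23 replicate 1, and 1 after median centring. Pgam1 was the glycolysis gene that rose (0.75 ± 0.10). Beside this, 19 of 29 skeletal muscle genes fell and 0 rose (10 without P44 replicate 3, 11 without P44 replicate 1, 12 without P25 replicate 2 or P44 replicate 2, 12 after quantile normalization and 8 after median centring), and their summed signal was 303499 to 422897 in early anagen, against 538472 to 598980.0 in telogen. None of these 29 genes was under the floor on any array, so no muscle marker was absent from either phase. The part of the muscle sheet in these falls was not tested.

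The 15 largest falls held enzymes, muscle genes and immune genes. Inmt, a methyltransferase of indoles, gave 258, 97.4, 186 and 127 in early anagen, against 4424, 2218 and 2466 in telogen (log2 difference -4.21 ± 0.38, adjusted p = 0.000701). Mylk4, a kinase of the myosin light chain kinase family, gave 357, 294, 517 and 408 in early anagen, against 7997, 3464 and 4465 in telogen (log2 difference -3.69 ± 0.31, adjusted p = 0.0006). Angptl7, a secreted protein related to angiopoietins, gave 11.5, 13.3, 74.3 and 40.7 in early anagen, against 473, 383 and 485 in telogen (log2 difference -3.35 or lower, adjusted p = 0.0006). All 4 early anagen arrays stood far under the lowest telogen array for each gene. Pon1, an esterase that is carried on lipoproteins in blood, gave 56.2, 65.8, 121 and 61.2 in early anagen, against 665, 536 and 571 in telogen (log2 difference -3.02 ± 0.27, adjusted p = 0.000672). Cyp2e1, which oxidizes ethanol and other small molecules, gave 2258, 896, 2896 and 1482 in early anagen, against 14973, 8879.6 and 10438 in telogen (log2 difference -2.70 ± 0.40, adjusted p = 0.00415). Atp12a, a proton and potassium pump, gave 117, 98.7, 118 and 48.7 in early anagen, against 379, 837 and 943 in telogen (log2 difference -2.89 ± 0.42, adjusted p = 0.00378). Its low level did not last, since its day means were 108, 83.5, 962, 5432, 9425, 9528, 8692, 9658 and 719.7 over the 9 days from P23 to P44. Tcap, a protein of the muscle sarcomere, gave 2038, 1661, 3509 and 3126 in early anagen, against 16177, 15236 and 14772 in telogen (log2 difference -2.64 ± 0.27, adjusted p = 0.001).

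The immune genes among the 15 were Cxcl13, Clec2d, Gzma, Ly9, Ccl5 and C6. Cxcl13, a chemokine for B cells, gave 92.5, 65.0, 110.0 and 65.9 in early anagen, against 1571, 348 and 579.8 in telogen (log2 difference -3.07 ± 0.49, adjusted p = 0.00509). Clec2d, a C-type lectin, gave 82.3, 71.8, 115 and 53.7 in early anagen, against 322, 1672 and 310.3 in telogen (log2 difference -2.82 ± 0.60, adjusted p = 0.0147). In both genes 1 telogen array stood above the other 2, P44 replicate 1 for Cxcl13 and P44 replicate 2 for Clec2d. Ly9, a receptor of lymphocytes, gave 12.7, 3.40, 19.8 and 5.90 in early anagen, against 288, 160.0 and 251 in telogen (log2 difference -2.71 or lower, adjusted p = 0.000436), so that all 4 early anagen signals lay under the floor. The remaining genes of the 15, Pla1a, a phospholipase, and Cyp4f18, a cytochrome P450 of leukocytes, had log2 differences of -3.02 ± 0.67 and -2.52 or lower. Of the 43 genes at least 4-fold lower, 37 (86%) had their highest day mean of the cycle at P44, against 28.1% of all genes, which describes the same arrays that chose them.

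Of 51 measured genes of detoxification and alcohol oxidation 0 rose and 20 fell (39.2%, against 14.6% of all genes), with a median log2 difference of -0.53 and 15 to 24 falls when 1 array was left out. Gstt2, a glutathione transferase, gave 106, 134, 153 and 140.4 in early anagen, against 623, 517 and 445 in telogen (log2 difference -1.99 ± 0.17, adjusted p = 0.00064). Fmo2, an oxidase of amines and sulfur compounds, gave 326, 303, 278 and 317 in early anagen, against 1192, 790.0 and 941 in telogen (log2 difference -1.65 ± 0.16, adjusted p = 0.000828). Ephx1, which opens epoxides, gave 2343, 2418, 2179 and 2284 in early anagen, against 4989, 4760.4 and 4774 in telogen (log2 difference -1.07 ± 0.10, adjusted p = 0.000706). The antioxidant list had 3 rises and 3 falls of 23 (5 of each without P25 replicate 1, and 6 rises and 2 falls after median centring). These are 13.0% each, near the shares of all genes. Its members parted, with Gclc, the enzyme that limits glutathione synthesis, at 1544, 1556, 1387 and 1517 in early anagen, against 853, 669.6 and 761 in telogen (log2 difference 0.98 ± 0.12, adjusted p = 0.00201), and Gpx3, the secreted glutathione peroxidase, at 6578, 4984, 13226 and 6035 in early anagen, against 21823, 30480.3 and 22286 in telogen (log2 difference -1.78 ± 0.33, adjusted p = 0.00903). In Gpx3 the early anagen array nearest to telogen was P25 replicate 1.

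Genes that FOXO factors and starvation induce in other tissues were more often lower than higher. Of 35 measured genes 13 fell (37.1%) and 1 rose, with a median of -0.56 and 10 to 13 falls when 1 array was left out. Pik3ip1, an inhibitor of the kinase PI3K, gave 358, 367, 286 and 407 in early anagen, against 926, 1023 and 1092 in telogen (log2 difference -1.53 ± 0.15, adjusted p = 0.000847). Trim63, a ubiquitin ligase of wasting muscle, gave 982, 812, 911 and 879.6 in early anagen, against 2613, 2199 and 2232 in telogen (log2 difference -1.39 ± 0.12, adjusted p = 0.000618). Gabarapl1 and Sqstm1, parts of the autophagy machinery, had log2 differences of -1.01 ± 0.11 and -0.98 ± 0.11. Sesn3, which restrains the growth kinase mTORC1, was the gene that rose, with 1413, 1365, 1448 and 1472 in early anagen, against 836, 530.0 and 754 in telogen (log2 difference 1.04 ± 0.17, adjusted p = 0.00535). The muscle values given above move with this list too, and their part in it was not tested.

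Most lysosomal genes fell. Of 37 measured genes 24 fell (64.9%) and 0 rose, with a median of -0.58, and the falls were 12 without P44 replicate 2, 13 without P23 replicate 2, 14 without P25 replicate 2, P44 replicate 1 or P44 replicate 3, 15 without P23 replicate 1, and 8 after median centring. Ctsf, a cathepsin, gave 424, 548, 452 and 316 in early anagen, against 863, 869 and 789 in telogen (log2 difference -0.98 ± 0.19, adjusted p = 0.00998). Hexa, which breaks down gangliosides, gave 2532, 2634, 3979.7 and 2475 in early anagen, against 6462, 6214 and 5312 in telogen (log2 difference -1.07 ± 0.19, adjusted p = 0.00796). Psap, whose product activates several lysosomal enzymes, gave 11522, 10281, 12304 and 10769.8 in early anagen, against 21629, 18639 and 16569 in telogen (log2 difference -0.75 ± 0.13, adjusted p = 0.00724). Ctss, a cathepsin of antigen-presenting cells that the macrophage list also holds, gave 2279.7, 2142, 4254 and 2026 in early anagen, against 9793, 8336 and 6518 in telogen (log2 difference -1.67 ± 0.29, adjusted p = 0.00667). No signals of these genes overlapped, and P25 replicate 1 was nearest to telogen in Hexa, Psap and Ctss. Macrophages are rich in lysosomes, and the summed signal of the 27 macrophage genes was 51088, 46943, 97609.7 and 53565 in early anagen, against 191836, 149872 and 126364 in telogen. None of the 27 was under the floor on any array, and the 2 lists share 1 gene. The part of macrophages in the falls of lysosomal genes was not tested.

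Promoters of lysosomal genes are known to carry the E-box CACGTG, which is read by the factors TFEB and TFE3 and also by USF, MYC and clock proteins. It reads the same on both strands. It was singled out after the shares of 11 motifs had been seen. In the 250 bases before the start of transcription (RefSeq, GRCm38.p6), CACGTG stood in 10 of 33 lysosomal genes with a promoter sequence (30.3%) and in 9 of 32 genes of the FOXO and starvation list (28.1%), 2 of which fell and 7 of which were not called, against 870 of 10343 measured genes (8.41%). It stood in 8.42% of the genes that rose and in 8.65% of those that fell, so the motif did not go with the direction over all genes. Among lists that mostly rose it stood in 3 of 42 genes of ribosome assembly (7.14%), 1 of 50 of mRNA splicing (2%) and 5 of 33 of nuclear pore and import (15.2%). The other motifs, searched on both strands, were TCACGTGA, which holds CACGTG (1.5% of measured genes with a promoter), CCAAT (36%), GGGCGG (58%), CCGGAAGT (5.52%), TTTGGCGC (0.831%), TTTCGCGC (0.503%), TGACGTCA (2.6%), TGACTCA (3.41%), GAGGAAGT (2.24%) and TATAAA (7.4%), and in lysosomal genes CCAAT stood in 36.4%, GGGCGG in 57.6%, TGACTCA and TCACGTGA in 9.09% each and TATAAA in 6.06%. Of the 10 lysosomal genes with the motif 6 fell, against 24 of all 37 measured (64.9%), so genes with the motif fell no more often than the list. The 6 lysosomal genes with the motif that fell are printed 5' to 3' on the strand of the gene. Each CACGTG is in capitals, to show how the copies are placed in these genes.
Ctsd (chr7:142387893-142388077, minus strand): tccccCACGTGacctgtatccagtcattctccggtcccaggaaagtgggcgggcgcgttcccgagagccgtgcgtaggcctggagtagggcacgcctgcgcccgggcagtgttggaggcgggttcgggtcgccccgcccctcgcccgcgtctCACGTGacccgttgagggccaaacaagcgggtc
Ctsf (chr19:4855059-4855118, plus strand): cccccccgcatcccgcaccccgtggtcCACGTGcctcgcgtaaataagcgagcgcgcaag
Ctsl (chr13:64370724-64370770, minus strand): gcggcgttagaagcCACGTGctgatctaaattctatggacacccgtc
Gaa (chr11:119267796-119267855, plus strand): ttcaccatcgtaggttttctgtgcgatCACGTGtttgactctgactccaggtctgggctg
Lamp1 (chr8:13159073-13159160, plus strand): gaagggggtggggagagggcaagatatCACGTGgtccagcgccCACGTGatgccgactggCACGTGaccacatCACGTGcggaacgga
Mcoln1 (chr8:3500421-3500506, plus strand): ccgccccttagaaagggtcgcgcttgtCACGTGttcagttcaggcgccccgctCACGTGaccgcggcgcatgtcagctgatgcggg

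Lamp1, the main protein of the lysosomal membrane, had 4 copies within the 88 bases printed, and Ctsd, the cathepsin D gene, and Mcoln1, a calcium channel of lysosomes, had 2 copies each. Their log2 differences were -0.64 ± 0.19 for Lamp1, -0.52 ± 0.14 for Ctsd, -0.56 ± 0.13 for Mcoln1, -0.58 ± 0.12 for Ctsl, -0.69 ± 0.15 for Gaa and -0.98 ± 0.19 for Ctsf. The other 4 genes with the motif, Gla, Glb1, Naglu and Sgsh, were not called, with log2 differences of 0.20 ± 0.24, -0.27 ± 0.14, -0.14 ± 0.19 and -0.55 ± 0.21. Ctsf and Ctsl kept their calls without each array in turn, whereas those of Ctsd and Lamp1 were lost when any array but P25 replicate 1 was left out, that of Gaa without P44 replicate 2 or P44 replicate 3 and that of Mcoln1 when any array but P23 replicate 1, P23 replicate 2 or P25 replicate 1 was left out. After median centring Ctsf alone of the 6 kept its call, with adjusted p of 0.0592 to 0.159 (limma, Benjamini-Hochberg) for the others. A match is a description of the letters and no measure of binding.

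Of 33 skin proteases and their inhibitors 13 fell (39.4%) and 1, Klk13, rose (log2 difference 1.70 ± 0.39, adjusted p = 0.0184; not without P23 replicate 2, P44 replicate 1 or P44 replicate 2), with 9 to 15 falls when 1 array was left out and 2 rises without P25 replicate 1. Spink5, the inhibitor of the proteases that shed the horny layer, gave 3605, 4063, 4075 and 3858 in early anagen, against 8731, 9804 and 8135 in telogen (log2 difference -1.19 ± 0.11, adjusted p = 0.000835). Serpinb7, a further inhibitor of the epidermis, gave 2426, 2096, 2172 and 1939 in early anagen, against 5668, 5159 and 5484 in telogen (log2 difference -1.34 ± 0.12, adjusted p = 0.000618). Serpinb11 gave 478, 404, 705 and 434 in early anagen, against 2063, 1699 and 1793 in telogen (log2 difference -1.91 ± 0.21, adjusted p = 0.00128). Barrier lipid synthesis had 8 of 26 genes lower and 0 higher (4 without P44 replicate 3), among them the lipoxygenases Aloxe3 (-0.80 ± 0.12) and Alox12b (-0.78 ± 0.15), which act in 1 pathway. Of 26 keratinocyte differentiation factors 1 rose and 7 fell (median -0.09; rises 2 without P25 replicate 1, falls 4 without P44 replicate 3), and of 20 claudin and tight junction genes 0 rose and 5 fell (falls 3 when any array but P25 replicate 1 or P44 replicate 1 was left out). Klf4, a factor required for the skin barrier, gave 6832, 6979, 6879.5 and 7113 in early anagen, against 10358, 11701 and 11388 in telogen (log2 difference -0.68 ± 0.10, adjusted p = 0.00374). Serpinb11 had the largest of these falls and Klf4 the smallest, with no overlap between the phases in any of the 6 genes.

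Immune genes were lower in most lists. Of 7 MHC class II genes 6 fell (85.7%, median -1.22), of 27 macrophage genes 20 (74.1%, median -1.45; 11 without P44 replicate 1, 13 without P44 replicate 2), of 19 complement and acute phase genes 12 (63.2%; 7 without P25 replicate 2 or P44 replicate 2 or after median centring) and of 33 chemokines and receptors 17 (51.5%; 8 without P25 replicate 2 or P44 replicate 3, 10 without P23 replicate 1, P23 replicate 2 or P44 replicate 2, 10 after median centring). H2-Ab1, a chain of MHC class II, gave 2728, 2548, 3563 and 2373 in early anagen, against 9365, 6245 and 6103 in telogen (log2 difference -1.36 ± 0.21, adjusted p = 0.0045). C1qa, a complement protein made by macrophages, gave 2184, 1885, 1392 and 2144 in early anagen, against 7777, 7834 and 5476 in telogen (log2 difference -1.89 ± 0.21, adjusted p = 0.00139). Mpeg1, the pore-forming protein of macrophages, gave 872, 526, 1056 and 503 in early anagen, against 3684, 2871 and 2734 in telogen (log2 difference -2.13 ± 0.29, adjusted p = 0.00299). The phases lay far apart, and the early anagen array nearest to telogen was P25 replicate 1 in H2-Ab1 and Mpeg1 but not in C1qa. C6, a protein of the terminal complement complex, gave 65.0, 75.7, 159.7 and 83.1 in early anagen, against 926, 662 and 336 in telogen (log2 difference -2.72 ± 0.42, adjusted p = 0.00461). The chemokine receptor Cxcr4 went the other way with 579.7, 608, 414 and 501 in early anagen, against 267, 314 and 226 in telogen (log2 difference 0.96 ± 0.18, adjusted p = 0.00893), as did the chemokine Cxcl14 (0.66 ± 0.19), whose call was lost, leaving 1 rise in the list, when any array but P25 replicate 1 was left out.

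T cell genes had 8 of 12 lower and 0 higher (4 without P23 replicate 1 or P44 replicate 1, 5 without P25 replicate 2, P44 replicate 2 or P44 replicate 3, 4 after median centring). Il2rb, a receptor chain for interleukins 2 and 15, gave 38.0, 54.2, 35.8 and 49.0 in early anagen, against 149, 161 and 138 in telogen (log2 difference -1.77 ± 0.17, adjusted p = 0.000883). Ccl5, a chemokine of activated T cells, gave 11.7, 54.2, 49.1 and 103 in early anagen, against 359, 326 and 285 in telogen (log2 difference -2.53 or lower, adjusted p = 0.00281). Gzma, a protease of killer cells, gave 54.9, 83.7, 58.2 and 31.7 in early anagen, against 634, 440.1 and 276 in telogen (log2 difference -2.95 or lower, adjusted p = 0.00204). These signals are dim, and early anagen reached the floor in 2 of the 3 genes. Genes that interferon induces had 8 of 38 lower (21.1%, against 14.6% of all genes) and 0 higher. Their median log2 difference was -0.84, or -0.69 after median centring, and 0 of the 38 differences were above 0. The count of falls moved with most arrays, and most without P25 replicate 1, where it was 28. It was 3 without P44 replicate 1 or P44 replicate 2, 4 without P23 replicate 2 or P25 replicate 2, 5 without P23 replicate 1, and 4 after median centring. Irf7, an interferon regulatory factor, gave 360.2, 325, 767 and 317 in early anagen, against 1473, 1271 and 1129.7 in telogen (log2 difference -1.64 ± 0.32, adjusted p = 0.0104), where P25 replicate 1 was more than 2 times each of the other early anagen arrays. Mast cell genes had 2 of 9 higher and 0 lower (1 when any array but P23 replicate 2, P25 replicate 1 or P25 replicate 2 was left out, and 1 fall without P25 replicate 1).

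Genes known for high levels in fetal and newborn tissue were part of the comparison, since the early anagen mice were younger. Of 20 imprinted and fetal growth genes 7 rose and 2 fell (35% and 10%), with rises at 3 without P44 replicate 3 and falls at 1 without P44 replicate 2. Peg3, an imprinted zinc finger gene, gave 5573, 5150.1, 5948 and 5366 in early anagen, against 1478, 1623 and 1606 in telogen (log2 difference 1.81 ± 0.10, adjusted p = 0.00023). Mest, an imprinted gene of growing tissue, gave 892, 777, 1359.9 and 857 in early anagen, against 339, 264 and 323 in telogen (log2 difference 1.63 ± 0.21, adjusted p = 0.0025). Plagl1, an imprinted factor that regulates others of this group, gave 6344, 5897, 7146 and 6593 in early anagen, against 3834, 3469 and 3599 in telogen (log2 difference 0.84 ± 0.11, adjusted p = 0.00269). The day means of Peg3 were 5362, 5657, 3167, 1932, 1138, 1305, 1496, 2885 and 1569 over the 9 days from P23 to P44, so that it was lower in full anagen than in early anagen and higher at P41 than in full anagen. Nnat, an imprinted gene of nerve and fat, was 1 of the 2 that fell, with 530.1, 259, 274 and 268 in early anagen, against 913, 868 and 984 in telogen (log2 difference -1.54 ± 0.26, adjusted p = 0.00654). The values of Peg3, Mest and Plagl1 did not overlap between the phases, and whether they go with growth or with age cannot be told apart.

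Cell types whose share of the skin could differ between the phases were read through their marker lists. Of 19 pigment cell genes 9 rose and 0 fell (median 0.93; 1 fall without P44 replicate 1), with summed signals of 15558, 23096, 15843 and 26329.9 in early anagen, against 11060.5, 10538 and 10065 in telogen. Genes of the bulge and hair germ had 6 rises and 5 falls of 27 (22.2% and 18.5%, against 15.4% and 14.6% of all genes). The rises were 2 without P44 replicate 1, and 3 when any array but P23 replicate 1, P25 replicate 1 or P44 replicate 1 was left out. Median centring left 2 falls. Among the 6 rises was Cdh3, the cadherin of hair germ and matrix, with 621, 749.8, 515 and 807 in early anagen, against 369, 370.2 and 279 in telogen (log2 difference 0.98 ± 0.19, adjusted p = 0.011). Krt15, a keratin of bulge stem cells and basal epidermis, gave 18575, 19083, 22898 and 19509.7 in early anagen, against 28249, 30026 and 30084 in telogen (log2 difference -0.56 ± 0.11, adjusted p = 0.0124), a call that quantile normalization and median centring each ended. Cdh3 was higher and Krt15 lower on all early anagen arrays, and the list had a median of 0.04. Fat cell genes had 1 rise and 3 falls of 20 (5% and 15%, the falls near the share of all genes). The rises were 2 without P44 replicate 1 and the falls 5 without P23 replicate 1. Endothelial genes had 1 rise and 4 falls of 20 (5% and 20%). Their falls were 1 without P44 replicate 3, 2 when any array but P25 replicate 1, P44 replicate 1 or P44 replicate 3 was left out, and 1 after median centring. Smooth muscle genes had 4 rises and 3 falls of 14 (28.6% and 21.4%), with 2 rises when any array but P25 replicate 1 or P44 replicate 1 was left out. Each of these 3 lists had calls in both directions. Log2 differences were above 0 in 6 of the 20 fat cell genes (median -0.19), 3 of the 20 endothelial genes (median -0.41) and 7 of the 14 smooth muscle genes (median 0.04). The first 2 lists thus leaned lower in early anagen, with medians of -0.05 and -0.27 after median centring. Of 10 Schwann cell genes, each represented by 1 probe set, 0 passed the test in limma, adjusted or not. The Schwann cell marker Mbp had 8 kept probe sets, of which 2 were called lower, with log2 differences from -0.88 to -0.09.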

How the data were processed

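Total RNA of upper-mid dorsal skin, extracted with TRIzol from 1 mouse per array, was measured on the Affymetrix array Mouse Genome 430 2.0. The deposited values are linear intensities, the MAS 5.0 signals that the authors had computed and scaled per array, for 45037 probe sets on 33 arrays. Signals were raised to a floor of 34.6, transformed to log2, and probe sets above the array median on fewer than 3 of the 33 arrays were removed, which left 26988. The 4 early anagen arrays were compared with the 3 telogen arrays by a linear model with moderated variances (limma 3.58.1, R 4.3.3) on these 7 arrays, and p-values were adjusted by Benjamini-Hochberg over those 26988. P25 was compared with P23 in a fit with 1 mean a day. Symbols came from the platform annotation (34945 probe sets with 1 gene, 932 with several and 9160 with none), 34741 of them matched by Entrez identifier, and each of 12867 genes was represented by its kept probe set of highest mean. Of the kept probe sets 3428 can bind several transcripts.

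Genes were named by rule: the 15 genes with the largest rises and the 15 with the largest falls, and the leading called genes of each further list. The 15 and 15 were taken from called genes without overlap between the phases, outside the mitosis, DNA replication, clock and keratin lists. Exceptions are marked in the text, and the lysosomal genes with printed promoters were chosen for a motif. Members and lists were chosen with earlier results of these data known, and 2 lists were corrected after their values had been seen because symbols had been matched in error. Each array is 1 mouse, so the p-values measure the spread between these mice. The number of arrays limits the precision. Fits were tested on simulated data. Alternatives changed the floor, the filter, the scaling, the arrays, the covariates, the probe sets and the test. Tables and plots were made with Python 3.11.15, pandas 2.3.3 and matplotlib 3.10.9.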

Additional observations from a re-analysis of the deposited data

Results flagged for a closer look

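Of the genes named above, 149 were examined for a stray array, without Krt1, Lor, Flg and Mbp. Among them, 13 had 1 early anagen array that stood apart from the other 3 by Dixon's criterion at the 95% level. By chance about 1 in 20 groups is flagged. On 8 of these the array was P25 replicate 1, on 4 it was P23 replicate 1 and on 1 it was P23 replicate 2, and 0 were on P25 replicate 2. On P25 replicate 1 the signal was high in Ctss (4253.5, against 2025.7 to 2279.7 on the others), Hexa (3979.7, against 2474.7 to 2634), Irf7 (766.7, against 317.1 to 360.2), Pla1a (322.9, against 68.2 to 98.6), Pon1 (120.9, against 56.2 to 65.8) and Timp2 (11049.9, against 7180.9 to 7743.3). All 6 are genes that fell in early anagen. On the same array it was low in Has3 (188.6, against 351.7 to 382.6) and Gla (154.9, against 239.1 to 250.3). On P23 replicate 1 it was low in Cbx7 (245, against 295.4 to 304.7) and Fbn2 (1193.3, against 1335.5 to 1363.8), and high in Nfkbie (231, against 171.6 to 177.3) and Nnat (530.1, against 259 to 274.3). On P23 replicate 2 Glb1 was low (697.6, against 776.3 to 783.9).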

How the results depend on the processing

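Over all probe sets the 7221 calls became 4703 with the replicate number as a block, 4499 with 1 probe set per gene (fewer tests), 4597 with P23 alone and 1768 with P25 alone as early anagen (fewer arrays), and 4271 to 7959 when 1 array was left out, with the low end without P44 replicate 3. The remaining alternatives gave between 5537 and 8993 calls, the most with sex as a covariate (4260 rises and 4733 falls). In that fit Sgsh, not called above, passed the test (log2 difference -0.51, adjusted p = 0.0387 in limma). The cause of the loss under the block was not tested. Replicate 1 was the female at both P25 and P44, so replicate number and sex cannot be told apart between those days. Same-numbered arrays of P23, P25 and P44 had deviations that correlated at 0.125 (P23 with P25), 0.0303 and 0.032 (P23 with P44) and 0.283 and 0.225 (P25 with P44), not above 0.1 in every pair, so the numbers were not used as pairs. Between P25 and P23, 0 calls became 5 without a filter, 5 in the joint fit of all arrays and 231 in the methods' t-test at its unadjusted threshold. Of the 144 called genes among the 149 examined above, 94 kept their call under every alternative and 132 without each array in turn. Calls were lost for 48 genes with P25 alone, 11 under the replicate block (Ctsd, Ctsl, Cxcl14, Fgf18, Gaa, Krt10, Krt15, Lamp1, Mcoln1, Mmp2 and Rpl39; adjusted p of 0.0554 to 0.0997), 10 after median centring (Ctsd, Ctsl, Egf, Gaa, Ipo13, Krt10, Krt15, Lamp1, Mcoln1 and Rpl39) and 3 after quantile normalization. The sign turned in Krt14 after quantile normalization (0.0312) and in Naglu after median centring (0.00439), neither of them called.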
